A study of Mus musculus with 30 samples.

Results

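The EGF receptor ligands and receptors followed here are 9 genes, taken by symbol from all 30 libraries of the series: the ligands Hbegf, Areg, Ereg, Tgfa, Btc and Nrg1, and the receptors Egfr, Erbb2 and Erbb3. They were chosen by name, with earlier results of these data known. All 9 are listed among the 25520 gene symbols of the untreated experiment and the 25410 of the hormone experiment. The cells were IDG-SW3, a single mouse line conditionally immortalised with a large T antigen, which passes in culture from late osteoblast to osteocyte. Every culture was grown up at 33 °C in medium with interferon-gamma, then moved to 37 °C, without interferon-gamma, in medium with ascorbic acid and beta-glycerol phosphate, and days are counted in that medium. Untreated cells, given neither compound nor vehicle, were sampled on day 3, on day 7 and then weekly on days 14, 21, 28 and lastly 35. In the hormone experiment, cells of day 3 or day 35 received 1,25(OH)2D3 at 100 nM, which is the active vitamin D hormone, or its ethanol vehicle for 24 h before RNA was taken. Each of the 10 groups has 3 libraries, which the labels call biological replicates of the one line, so p-values measure the spread between cultures of that line.

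The EGF family works as a paracrine and autocrine switch. Its ligands are made as membrane-anchored precursors and released by ADAM proteases, and they bind receptor tyrosine kinases that pair up and start the RAS, RAF, MEK and ERK cascade. HB-EGF, amphiregulin, epiregulin, TGF-alpha and betacellulin bind the EGF receptor, neuregulin 1 binds ErbB3 and ErbB4, and ErbB2 has no known ligand of its own and acts as the preferred partner. ERK in turn induces both early transcription factors and inhibitors that damp the same pathway. In the osteoblast lineage EGF receptor signalling is known for favouring proliferation of progenitors over their maturation, and 1,25(OH)2D3 acts there through the vitamin D receptor, a nuclear receptor that binds DNA.

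The 2 experiments used different library kits and units, RPKM for untreated cells and counts for the hormone experiment, so levels are only set side by side between them. The hormone libraries held 22062866 to 54325515 counts, and rRNA rows made up 72.6% to 88.9% of the RPKM of each untreated library. The osteoblast marker list was detected throughout. It summed to 1252 to 3567 CPM in vehicle cells of day 3 and 20182 to 25905 CPM at day 35. CPM are counts scaled to a common library size by the TMM method. With hormone the sums were 970.1 to 1883 CPM at day 3 and 10398 to 13053 CPM at day 35. Of the 6 genes, 4 reached a mean of 1 RPKM on untreated days 3, 7 and 14, and 5 on days 21, 28 and 35. Of 5 osteocyte markers, Dmp1 stood at 5.63 CPM in vehicle cells of day 3 and 181.9 CPM at day 35. Over the same days Phex went from 37.1 to 265.8 CPM, Mepe from 0 to 1.73 and Sost from 0 to 5.61. Pdpn went the other way, from 75.7 to 59.8 CPM. All 5 stayed below a mean of 1 RPKM on every untreated day, although the labels call the cells osteocytic. Epithelial, Schwann cell, macrophage and endothelial markers, which stand for other cells that a culture could hold, summed to at most 1.25, 0.975, 1.08 and 0.165 RPKM in untreated libraries. In the hormone experiment the day 3 sums with vehicle and with hormone were 4.39 to 6.02 and 2.66 to 12.7 CPM for epithelial, 0.829 to 3.86 and 5.01 to 6.03 for Schwann cell, 3.34 to 6.34 and 5.67 to 8.07 for macrophage and 2.20 to 5.48 and 6.37 to 7.58 for endothelial markers, with Ptprc and Pecam1 at 0 in every group. At day 35 they were 4.65 to 5.44 and 2.37 to 4.03 CPM for epithelial, 2.71 to 3.25 and 3.03 to 5.61 for Schwann cell, 26.0 to 30.0 and 30.9 to 39.0 for macrophage and 1.37 to 2.99 and 2.01 to 5.52 for endothelial markers. The macrophage sum of day 35 was mostly Lyz2, at 27.5 ± 2.25 CPM with vehicle against 3.68 ± 1.74 at day 3. The part of these differences between treatments and between days in the results was not tested. The 0 values of Ptprc and Pecam1 need not mean absence. Myc was also at 0 in every group of the hormone experiment, against 19.0 ± 1.48 RPKM in untreated cells of day 3. Reads on olfactory receptor genes, a measure of background, came to 0.123 to 0.166 CPM per kilobase in hormone-treated libraries of day 3, against 0.0121 to 0.0175 in vehicle libraries of that day, and reached 0.121 in hormone replicate 2 of day 35.

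The promoters of 5 of the 9 genes (Areg, Tgfa, Btc, Egfr and Erbb2) were searched, with sequences from RefSeq on mouse build GRCm38.p6. Those of Hbegf, Ereg, Nrg1 and Erbb3 were not searched. The search covered both strands of the 250 bases before the listed start. For Tgfa that start lies inside the gene, whose span begins at chr6:86195038 on this build. Most of the Tgfa stretch therefore overlaps the gene. The promoters of Areg and Egfr, whose transcripts were lower in vehicle cells of day 35 than of day 3, and of Tgfa, whose transcript was higher, are shown so that their motifs can be set against those directions. Capitals mark the cAMP response element (TGACGTCA), the GC box (GGGCGG) and the TATA box (TATAAA), or the reverse complement of each. The Areg stretch is chr5:91139349-91139598 on the plus strand, that of Tgfa is chr6:86194972-86195221 on the plus strand, and that of Egfr is chr11:16751953-16752202 on the plus strand.
Areg: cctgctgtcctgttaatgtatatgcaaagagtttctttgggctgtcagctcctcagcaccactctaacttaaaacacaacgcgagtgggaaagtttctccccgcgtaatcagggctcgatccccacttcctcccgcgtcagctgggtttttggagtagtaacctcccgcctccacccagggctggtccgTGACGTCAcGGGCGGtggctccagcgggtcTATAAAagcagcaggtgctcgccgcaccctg
Tgfa: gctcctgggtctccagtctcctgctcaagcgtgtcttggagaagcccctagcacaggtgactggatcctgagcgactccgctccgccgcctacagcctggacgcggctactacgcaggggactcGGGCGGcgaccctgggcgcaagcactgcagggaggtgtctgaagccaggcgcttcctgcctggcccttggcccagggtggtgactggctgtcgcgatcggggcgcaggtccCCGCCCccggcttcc
Egfr: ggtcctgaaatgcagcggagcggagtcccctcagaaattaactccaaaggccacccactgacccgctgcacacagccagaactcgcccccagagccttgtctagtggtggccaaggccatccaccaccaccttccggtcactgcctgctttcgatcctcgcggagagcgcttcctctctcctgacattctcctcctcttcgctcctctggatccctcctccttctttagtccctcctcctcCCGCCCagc

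The Areg promoter held 1 cAMP response element beginning 61 bases before the start, 1 GC box beginning 52 bases before it and 1 TATA box beginning 31 bases before it. Of 27018 mouse promoter stretches of this length, 1.62% held that cAMP response element, 32.9% a GC box and 13.0% a TATA box. The shorter core TGACG, found in 17.9% of the stretches, matched 3 times in Areg, with 2 of the matches inside the full element, and once each in Btc and Erbb2. The Tgfa stretch held 2 GC boxes, both within the gene span, Egfr held 1, and Btc and Erbb2 held none. An AP-1 site (TGANTCA, in 6.87% of the stretches), a CArG box (1.40%) and a vitamin D response element of the DR3 type (0.0333%) were not matched in any of the 5. At 0.0333% of stretches, a miss of the DR3 type in 5 windows says little about the hormone response. Hbegf and Ereg, the genes called with hormone at day 3 (below), were not among those searched. A match describes letters in these windows and is not evidence of binding, and more distant elements were not searched.

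In vehicle-treated cells of day 3, Hbegf and Ereg were the most abundant of the 6 ligand transcripts, and both were far lower after 24 h of 1,25(OH)2D3. Hbegf encodes heparin-binding EGF-like growth factor, which binds the EGF receptor and ErbB4. It stood at 90.2, 106 and 83.0 CPM in the vehicle libraries and at 2.54, 1.53 and 3.29 CPM in the hormone libraries. Ereg encodes epiregulin, a broad ligand of low affinity and long action. Its levels were 175.3, 139.0 and 171.7 CPM with vehicle and 7.26, 5.95 and 8.87 CPM with hormone. For both genes every vehicle library lay far above every hormone library. Hbegf fell by 5.24 ± 0.26 on the log2 scale (SE, 37.9-fold, edgeR quasi-likelihood test, adjusted p = 1.19e-08) and Ereg fell by 4.46 ± 0.34 (22.0-fold, adjusted p = 7.60e-07). These 2 of 9 genes were called lower, against 9.09% of the 20055 genes tested that were lower in this comparison.

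The other 7 genes did not pass the test at day 3. Areg, which encodes amphiregulin, was at 2.56, 1.40 and 1.79 CPM with vehicle and at 0.669, 0.425 and 1.02 CPM with hormone, so the groups did not overlap. Its change was -1.44 ± 0.92 (adjusted p = 0.254), with a 95% interval from -3.24 to 0.35. Few counts lie behind these values, 62 to 105 a library with vehicle and 15 to 37 with hormone. Nrg1, the ligand of the other receptor branch, was at 19.2, 37.1 and 26.8 CPM with vehicle and at 22.1, 14.6 and 14.1 CPM with hormone. Its groups overlapped, and its change of -0.71 ± 0.28 missed the threshold (adjusted p = 0.0775). The call was gained without vehicle day 3 replicate 1 (adjusted p = 0.0238) and without hormone day 35 replicate 1, 2 or 3 (adjusted p = 0.0477, 0.0358 and 0.0474). It was also gained with no filter on counts (-0.81, adjusted p = 0.0434).

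Btc, encoding betacellulin, spread over 2.30 to 7.15 CPM with vehicle and 3.35 to 4.19 CPM with hormone, and its change was -0.29 ± 0.59 (adjusted p = 0.737). Tgfa, encoding TGF-alpha, was low at day 3, at 0.317 to 0.963 CPM with vehicle and 0.935 to 1.13 CPM with hormone, a change of 0.62 ± 0.52 (adjusted p = 0.383). Per kilobase the hormone-treated level of Tgfa, 0.231 ± 0.0219 CPM (SD, n = 3), stood beside a background of 0.123 to 0.166, and subtracting that background turned the change to -0.66.

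Among the receptors, Egfr encodes the kinase that the 5 EGF-type ligands share. It was at 117.6, 149.5 and 150.2 CPM with vehicle and at 210.0, 188.5 and 162.4 CPM with hormone. The hormone libraries lay above the vehicle libraries without overlap, yet the change of 0.43 ± 0.20 missed the threshold (adjusted p = 0.132). It passed with library totals in place of TMM scaling (0.82, adjusted p = 0.0162) and in DESeq2 (0.50, adjusted p = 0.0306). Erbb2, the partner receptor, overlapped between the groups, with a change of -0.14 ± 0.25 (adjusted p = 0.68) and a 95% interval from -0.62 to 0.34.

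Erbb3, the neuregulin receptor with little kinase activity of its own, rested on 5 to 10 counts a library with vehicle and 19 to 60 with hormone. Its change of 2.73 ± 1.02 was not called (adjusted p = 0.0653), although it was in DESeq2 (2.84, adjusted p = 0.00352), with only the 2 groups compared in the fit (2.78, adjusted p = 0.0334), with library totals (3.14, adjusted p = 0.037) and without hormone day 35 replicate 2 (2.63, adjusted p = 0.0444). Its hormone level per kilobase, 0.193 ± 0.0944 CPM, was close to the background of those libraries, and with that background subtracted the change was 1.85 (adjusted p = 0.36).

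**Figure D1:**
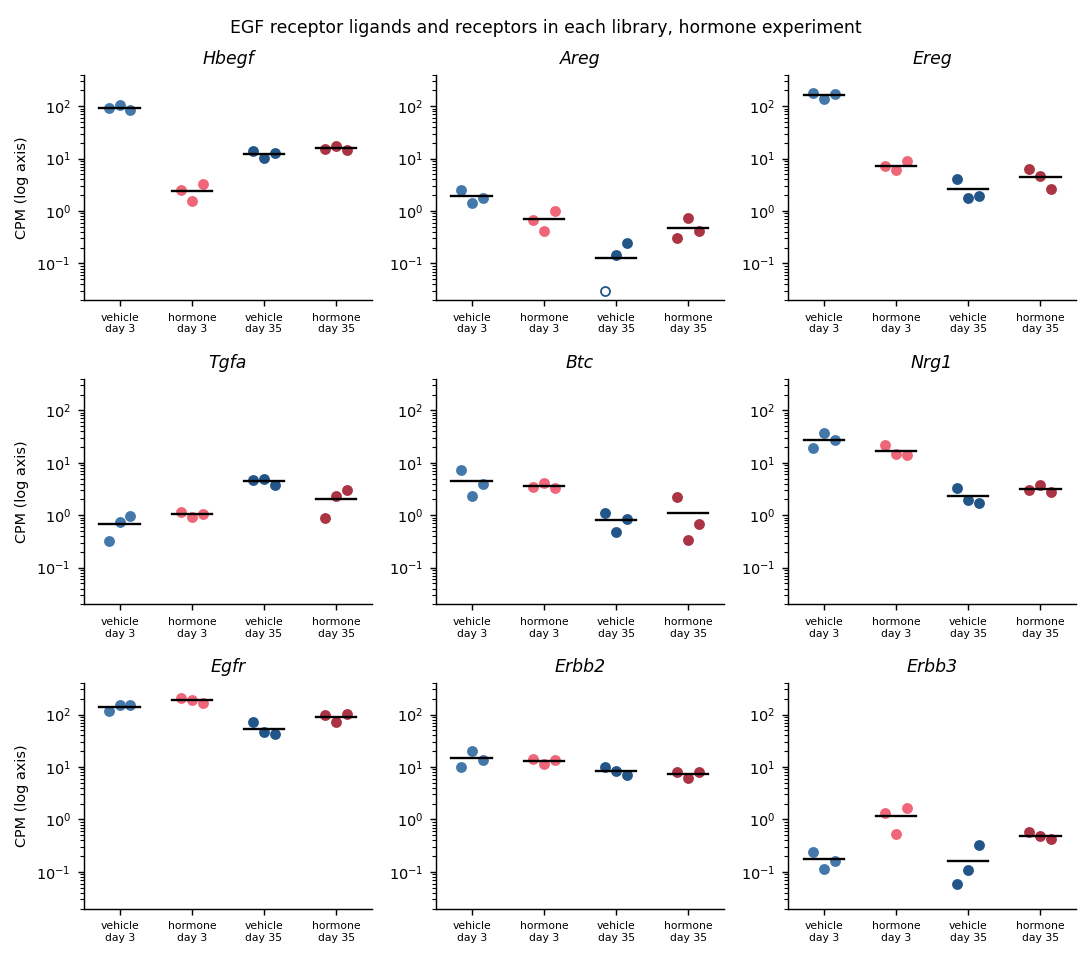
CPM of each gene (log axis) in the 3 libraries of the 4 hormone-experiment groups; points are libraries, bars are group means, and the open point is a library with 0 counts. Hbegf and Ereg drop from 93.1 and 162 CPM to 2.45 and 7.36 CPM with hormone at day 3, whereas at day 35 the hormone and vehicle libraries of Hbegf lie close together.

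At day 35 the same treatment did not lower any ligand past the threshold. Hbegf was at 13.8, 10.2 and 12.9 CPM with vehicle and at 14.9, 17.1 and 14.8 CPM with hormone, a change of 0.34 ± 0.22 (adjusted p = 0.553) whose 95% interval ran from -0.08 to 0.77. Its groups stood apart by a narrow margin, with hormone higher. Ereg was at 4.06, 1.77 and 1.92 CPM with vehicle and at 6.24, 4.64 and 2.67 CPM with hormone, so the groups overlapped. The Ereg change was 0.79 ± 0.32 (adjusted p = 0.262), and it passed only without vehicle day 35 replicate 1, the highest vehicle library (1.29, adjusted p = 0.0349).

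Egfr was the 1 of 9 genes called higher at day 35, against 2.41% of all genes tested. It stood at 72.0, 45.8 and 42.7 CPM with vehicle and at 97.1, 73.2 and 101.4 CPM with hormone, and the groups did not overlap. The rise was 0.76 ± 0.20 on the log2 scale (1.69-fold, edgeR, adjusted p = 0.0466). The call was lost without vehicle day 35 replicate 2 or 3 (adjusted p = 0.166 and 0.161), without hormone day 35 replicate 1 or 3 (0.1 and 0.133) and without hormone day 3 replicate 2 or 3 (0.0733 and 0.0596). It was also lost with library totals in place of TMM (0.0523).

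Of the remaining genes at day 35, Areg was at 0, 0.144 and 0.245 CPM with vehicle and at 0.303, 0.728 and 0.424 CPM with hormone, from 10 and 59 counts in all. Those groups did not overlap, and the change of 1.91 ± 0.99 was not called (adjusted p = 0.419). Tgfa was at 4.71, 4.94 and 3.84 CPM with vehicle and at 0.888, 2.30 and 3.03 CPM with hormone, again without overlap, and its change of -1.12 ± 0.51 was not called (adjusted p = 0.329). Btc, Nrg1, Erbb2 and Erbb3 changed by 0.42, 0.46, -0.19 and 1.58, all below the threshold.

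The hormone responses of the 2 days were then compared directly, as the interaction of day and treatment. The response at day 35 was higher than that at day 3 by 5.59 ± 0.33 for Hbegf (log2, adjusted p = 1.02e-07) and by 5.24 ± 0.46 for Ereg (adjusted p = 4.39e-06), with 95% intervals of 4.94 to 6.23 and 4.35 to 6.14. These were the 2 of 9 genes called higher in this contrast, against 4.14% of all genes tested. No gene of the 9 was called in the opposite direction. The difference for Areg was of the same sign, 3.35 ± 1.35 (adjusted p = 0.149), and DESeq2 called it (3.37, adjusted p = 0.0313). For Nrg1 it was 1.17 ± 0.41 (adjusted p = 0.103), called without vehicle day 3 replicate 1 (1.50, adjusted p = 0.0293) or vehicle day 35 replicate 1 (1.51, adjusted p = 0.0379). Tgfa differed by -1.74 ± 0.73 (adjusted p = 0.166), and Egfr by 0.33 ± 0.29 (adjusted p = 0.505, 95% interval -0.23 to 0.89), so its responses at the 2 days were not told apart. Because both responses and the contrast of vehicle cells between the days, below, share the vehicle libraries, their values are set side by side and no correlation is given.

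**Figure D2:**
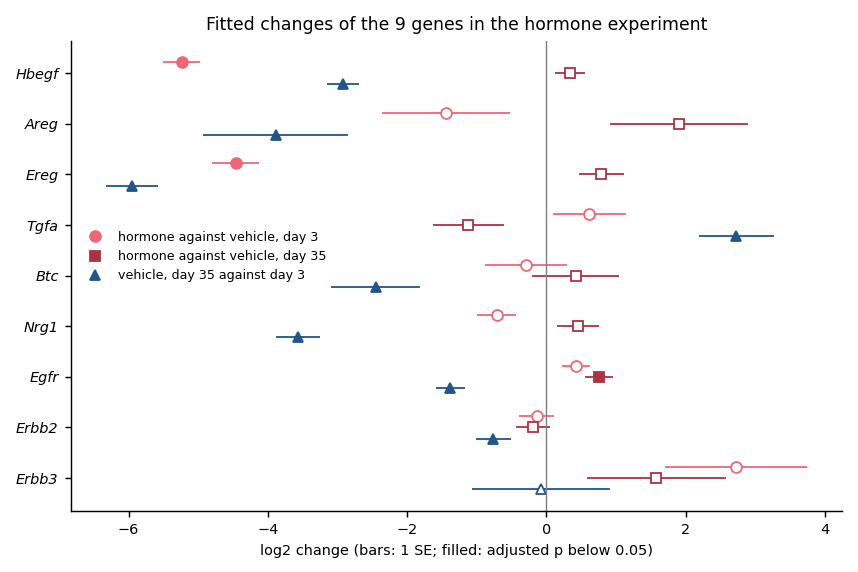
Fitted log2 changes of the 9 genes with 1 SE (bars) for hormone against vehicle at day 3 and at day 35 and for vehicle day 35 against day 3; filled symbols passed an adjusted p of 0.05. Hbegf and Ereg are the 2 filled circles far to the left, at -5.24 and -4.46, while their day 35 squares sit at 0.34 and 0.79.

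Most of the family was lower in vehicle cells of day 35 than of day 3. Differentiation, time in culture and distance from the 33 °C stage with interferon-gamma cannot be told apart in this contrast. In it, 7 of the 9 genes were called lower, against 14.5% of all genes tested, and 1 was called higher, against 15.5%. Ereg fell by 5.95 ± 0.37 (61.8-fold, adjusted p = 1.38e-08), from a mean of 162 ± 20.0 to 2.58 ± 1.28 CPM (SD, n = 3). Hbegf fell by 2.92 ± 0.23 (7.56-fold, adjusted p = 1.61e-07), from 93.1 ± 11.8 to 12.3 ± 1.84 CPM. Nrg1 fell by 3.57 ± 0.32 (11.9-fold, adjusted p = 5.69e-07), from 27.7 ± 8.95 to 2.32 ± 0.816 CPM. For each of these 3 ligands all libraries of day 35 lay below all libraries of day 3. Areg fell by 3.89 ± 1.04 (adjusted p = 0.00988) and Btc fell by 2.45 ± 0.64 (adjusted p = 0.00847), both from levels of a few CPM. In bulk RNA, fewer cells that make a transcript and less of it in each cell cannot be told apart.

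Tgfa went the other way. It was at 0.317, 0.744 and 0.963 CPM in vehicle cells of day 3 and at 4.71, 4.94 and 3.84 CPM at day 35. The rise was 2.73 ± 0.54 (6.63-fold, adjusted p = 0.0012), and with background subtracted it was 2.84 (adjusted p = 0.00186). Of the receptors, Egfr fell by 1.38 ± 0.21 (2.60-fold, adjusted p = 0.000103), from 139.1 ± 18.6 to 53.5 ± 16.1 CPM, without overlap. Erbb2 fell by 0.76 ± 0.25 (adjusted p = 0.0297), from 14.5 ± 5.00 to 8.54 ± 1.61 CPM, and its groups overlapped at the edge, with 10.0 CPM in the lowest library of day 3 and 10.2 CPM in the highest of day 35. The Erbb2 call was lost without vehicle day 3 replicate 2 or 3 (-0.47, adjusted p = 0.162, and -0.79, adjusted p = 0.0546) and without vehicle day 35 replicate 2 or 3 (-0.74, adjusted p = 0.0865, and -0.62, adjusted p = 0.128), and with only the 2 groups compared in the fit (-0.78, adjusted p = 0.0565). Erbb3 was at 0.172 ± 0.0664 and 0.165 ± 0.143 CPM, with a change of -0.08 ± 0.99 (adjusted p = 0.964).

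Ordered by level, Hbegf ran from vehicle day 3 (93.1 CPM) through hormone day 35 (15.6) and vehicle day 35 (12.3) to hormone day 3 (2.45), and no neighbouring pair in that order overlapped. Ereg ran from vehicle day 3 (162 CPM) through hormone day 3 (7.36) and hormone day 35 (4.52) to vehicle day 35 (2.58), and only the step below vehicle day 3 was free of overlap. Hormone treatment of day 3 cells thus left Hbegf below its level in late cells, and left Ereg at a level whose libraries overlapped those of late cells given hormone. Egfr ran from hormone day 3 (186.9 CPM) through vehicle day 3 (139.1) and hormone day 35 (90.6) to vehicle day 35 (53.5), with no overlap between neighbours. The 2 groups of day 35 lay below both groups of day 3 for Egfr, Nrg1 and Btc.

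In untreated cells only Nrg1 and Egfr reached the level needed for the test (at least 1 RPKM in at least 3 libraries), 2 of the 9 genes, and both fell late in the course. Nrg1 was the ligand with the highest RPKM. It was at 19.6, 20.7 and 21.1 RPKM on day 3, at 26.8, 24.9 and 26.8 on day 7 and at 19.5, 28.4 and 24.2 on day 14. It then stood at 18.0, 12.3 and 14.0 RPKM on day 21, at 11.5, 3.77 and 4.93 on day 28 and at 2.48, 1.35 and 1.16 on day 35. The libraries of day 7 lay above those of day 3, though that change was not called (0.35 ± 0.31, adjusted p = 0.422), and the libraries of days 28 and 35 lay below all earlier ones. On the log2(RPKM + 0.5) scale Nrg1 fell by 1.68 ± 0.31 at day 28 against day 3 (limma, adjusted p = 0.00018) and fell by 3.32 ± 0.31 at day 35 (10.0-fold, adjusted p = 3.62e-08).

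Egfr held 3.68 ± 0.434, 3.71 ± 0.448 and 3.94 ± 0.288 RPKM on days 3, 7 and 14, then 2.89 ± 0.395, 1.33 ± 0.395 and 0.839 ± 0.329 RPKM on days 21, 28 and 35 (SD, n = 3). It fell by 1.21 ± 0.21 at day 28 (adjusted p = 0.000138) and by 1.67 ± 0.21 at day 35 (3.17-fold, adjusted p = 2.16e-06) against day 3. Both genes were among those called lower at day 28, which were 31.2% of the 9933 genes tested, and at day 35, which were 51.5%. Neither was called at day 7, 14 or 21 against day 3, where 25.7%, 29.7% and 37% of genes were called. Both passed the F test over the 6 days (F = 43.2, adjusted p = 3.30e-08 for Nrg1, and F = 23.8, adjusted p = 1.44e-06 for Egfr), as did 72.5% of genes.

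The median of all genes moved by -0.69 between day 3 and day 35, so part of each fall is shared by the whole table. With each library centred on its own median, Nrg1 fell by 2.50 (adjusted p = 7.85e-08) and Egfr by 0.84 (adjusted p = 0.000266). Centring also turned the split of all calls from 559 higher and 5117 lower to 2934 higher and 2139 lower. Replicate 1 of every day shared a sequencing run, and within that run Nrg1 went from 19.6 to 2.48 RPKM and Egfr from 4.16 to 1.22 RPKM between day 3 and day 35. Replicates 2 and 3 of day 35 came from a run that held no other day, so run and day are partly confounded.

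Between neighbouring days no member was called from day 7 to 14 or from day 14 to 21, where 2.87% and 0.634% of genes were. Egfr fell by 0.90 ± 0.21 from day 21 to 28 (adjusted p = 0.0418), against 0.413% of genes called lower. That call was lost when replicate 2 or 3 of day 3, any library of day 7 or 21, replicate 2 or 3 of day 14 or 28, or replicate 2 of day 35 was left out (adjusted p from 0.0515 to 0.25). Nrg1 changed by -1.21 ± 0.31 over that step (adjusted p = 0.0604), which passed in several alternatives, among them without replicate 1 of day 28 (-1.64, adjusted p = 0.00141) or replicate 1 of day 35 (adjusted p = 0.0461). From day 28 to 35 Nrg1 fell by 1.64 ± 0.31 (adjusted p = 0.00554), against 7.83% of genes called lower, and with the sequencing run in the model the change was -1.35 (adjusted p = 0.188). Egfr changed by -0.46 ± 0.21 over the last step (adjusted p = 0.152), a call gained without replicate 1 of day 35 (-0.65, adjusted p = 0.0377).

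**Figure D3:**
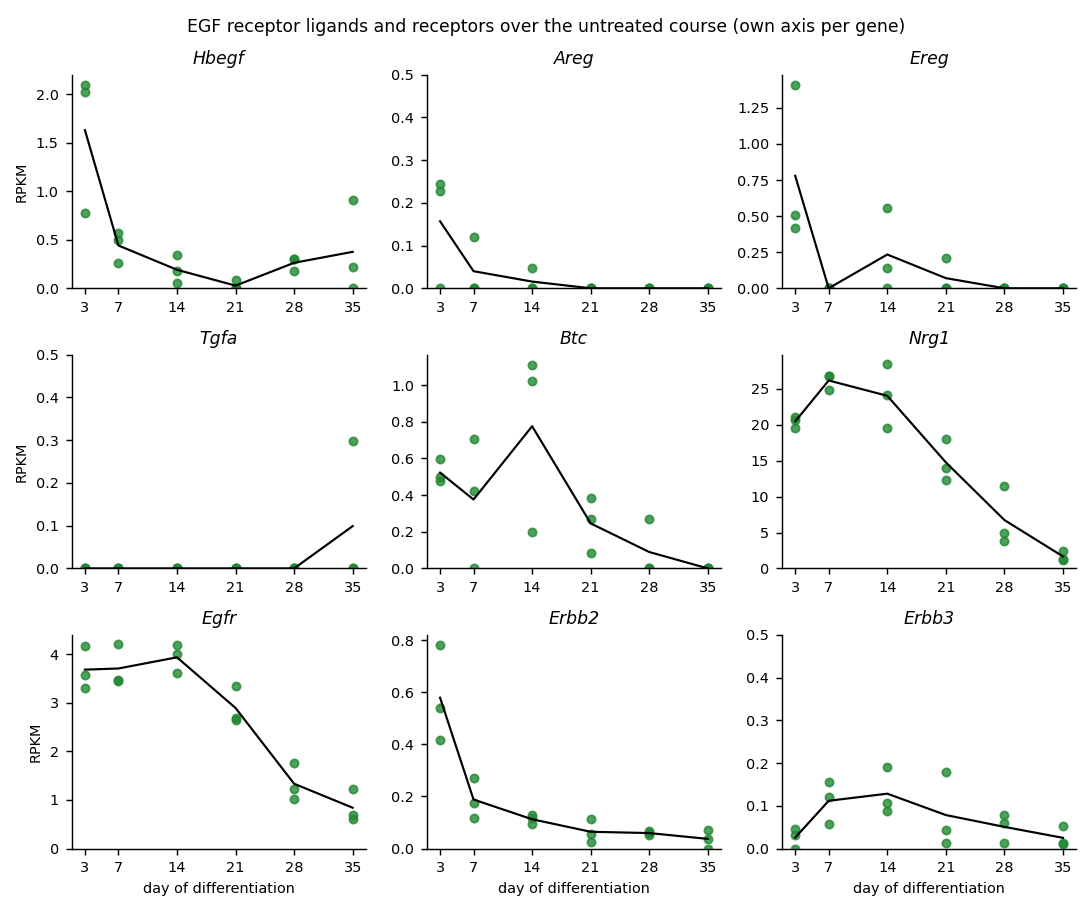
RPKM of the 9 genes on the 6 untreated days, with 1 point a library, a line through the day means and an axis of its own for each gene. Nrg1 and Egfr are lowest on day 35, at means of 1.66 and 0.839 RPKM, Hbegf and Erbb2 are highest on day 3, and Tgfa is above 0 in a single library of day 35.

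The other 7 genes were low in untreated cells and did not enter the test. Hbegf was at 0.775, 2.10 and 2.02 RPKM on day 3, at 0.494, 0.573 and 0.258 on day 7, and at 0 or 0.082 in the libraries of day 21. On day 35 it spread from 0 to 0.908 RPKM. Its libraries of day 3 lay above those of days 7, 14, 21 and 28, and the highest library of day 35 exceeded the lowest of day 3. Ereg was at 1.41, 0.417 and 0.509 RPKM on day 3 and was listed at 0 in every library of days 7, 28 and 35. Areg was at most 0.243 RPKM and listed at 0 in 14 of 18 libraries, and Tgfa was listed at 0 in 17 of 18, with 0.297 RPKM in replicate 1 of day 35.

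Btc had its highest mean, 0.775 ± 0.503 RPKM, on day 14, though those libraries overlapped the ones of days 3 and 7. It was listed at 0 on day 35. Erbb2 was at 0.539, 0.416 and 0.781 RPKM on day 3 and at no more than 0.271 RPKM in any later library, so day 3 stood apart. Erbb3 did not exceed 0.191 RPKM in any library. A fit of all 18732 genes, without the filter, called 7 of the 9 lower at day 35 against day 3, where 39.6% of genes were called and 35.6% were called lower. Among the 7 were Hbegf (-1.35 ± 0.32, adjusted p = 0.00357), Ereg (-1.27 ± 0.26, adjusted p = 0.000944) and Erbb2 (-0.99 ± 0.11, adjusted p = 3.58e-06). Tgfa and Erbb3 were not called there. At such levels the added 0.5 RPKM shrinks the fitted changes.

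Per unit length, the make-up of the ligand pool differed between the groups. In vehicle cells of day 3 the 6 ligands summed to 85.2 ± 2.27 CPM per kilobase (SD, n = 3), of which Hbegf made up 46.0 ± 5.64% and Ereg 46.0 ± 5.69%. With hormone the sum was 7.05 ± 0.950 CPM per kilobase, and Nrg1 made up 30.5 ± 6.59%, Ereg 25.2 ± 2.83%, Btc 18.5 ± 5.15% and Hbegf 14.4 ± 3.78%. The libraries of the 2 groups did not overlap in the sum, which ran from 83.0 to 87.5 with vehicle and from 5.95 to 7.64 with hormone.

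At day 35 the sum was 7.49 ± 1.13 CPM per kilobase with vehicle and 9.31 ± 0.775 with hormone, and Hbegf made up 69.3 ± 3.07% and 70.7 ± 3.44% of it. Tgfa was the second ligand of vehicle cells at day 35, at 13.5 ± 3.16%, against 0.176 ± 0.0893% at day 3. In untreated cells Nrg1 made up most of the pool, with 86.9 ± 0.912% on day 3, 97.6 ± 2.10% on day 21 and 83.8 ± 16.3% on day 35, where Hbegf reached 24.6% in the library in which its share was highest, while the 6 ligands summed to 23.5 ± 1.16 RPKM on day 3 and 2.14 ± 1.34 RPKM on day 35. The untreated libraries of day 3 thus differed from the vehicle libraries of day 3 in which ligand led, Nrg1 in the first and Hbegf with Ereg in the second. Kit, unit and vehicle differ between these groups, and the gene lengths behind the deposited RPKM are not given. The parts of these in the difference cannot be told apart. Among the receptors Egfr led in every group of the hormone experiment, with 12.7 ± 1.70 CPM per kilobase in vehicle cells of day 3 against 2.90 ± 0.997 for Erbb2 and 0.0287 ± 0.0110 for Erbb3.

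**Figure D4:**
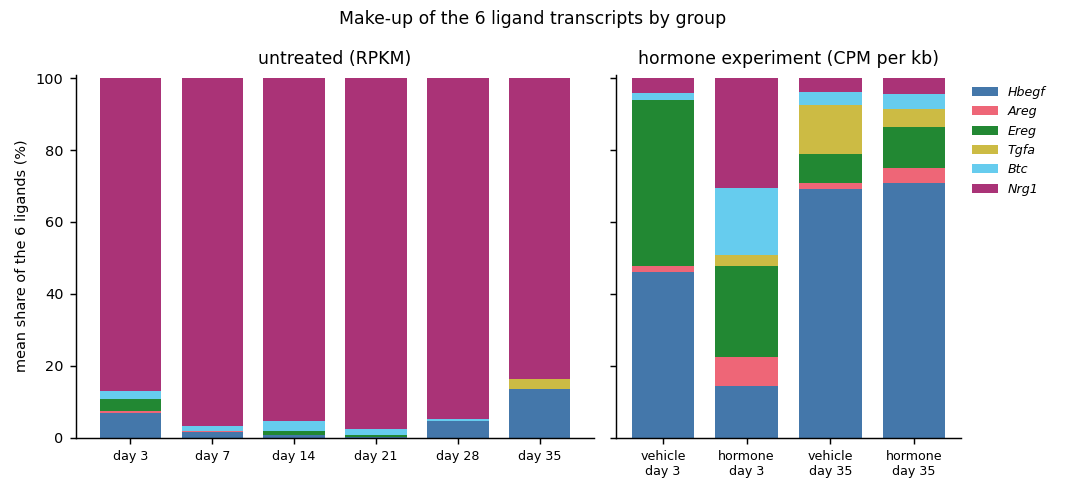
Mean share (%) of each ligand in the summed level of the 6 ligands, from RPKM for the 6 untreated days (left) and from CPM per kilobase for the 4 hormone-experiment groups (right). Nrg1 fills most of each untreated bar, whereas Hbegf and Ereg each fill 46.0% of vehicle day 3, and Hbegf fills 69.3% and 70.7% of the day 35 bars.

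The rest of the pathway was read through lists chosen with earlier results of these data known. Among all genes tested, 11.4% rose and 9.09% fell with hormone at day 3, 2.41% rose and 2.14% fell at day 35, and the difference between the responses was called higher for 4.14% and lower for 2.94%. The ERK-responsive transcripts, early genes that ERK signalling induces, fell with hormone at day 3 in 11 of the 14 members tested and rose in 0, with a list median of -2.54 against 0.26 for all genes. Ptgs2, the inducible prostaglandin synthase, went from 1713 ± 167.9 to 21.5 ± 0.435 CPM (-6.31 ± 0.25, adjusted p = 1.40e-09). Egr2 and Junb, immediate-early transcription factors, fell by 3.31 ± 0.23 (adjusted p = 3.73e-07) and by 2.47 ± 0.19 (adjusted p = 7.31e-07). At day 35 the hormone raised 2 of 14 and lowered 0, with a median of -0.05 against 0.02 for all genes. These 2 were Emp1, a membrane protein, at 1.52 ± 0.17 (adjusted p = 4.87e-05), and Etv5, an ETS factor, at 1.31 ± 0.23 (adjusted p = 0.0029). The difference between the responses was called in 9 of 14, all higher at day 35, among them Ptgs2 (6.50), Egr2 (3.63) and Emp1 (2.55). ERK activity itself was not measured.

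The feedback inhibitors are proteins that damp the receptor or the ERK cascade. With hormone at day 3, 11 of 18 fell and 1 rose, with a median of -0.74 against 0.26 for all genes. Errfi1, which encodes the EGF receptor inhibitor MIG6, went from 2166 ± 191.2 to 75.7 ± 1.66 CPM (-4.84 ± 0.21, adjusted p = 3.01e-09). Dusp4, an ERK phosphatase, fell by 3.71 ± 0.30 (adjusted p = 1.45e-06), and Spry2, a Sprouty inhibitor of receptor signalling, fell by 2.51 ± 0.23 (adjusted p = 3.71e-06). At day 35, 2 of 18 rose and 0 fell, namely the phosphatases Dusp6 (1.78 ± 0.17, adjusted p = 1.02e-05) and Dusp5 (2.49 ± 0.38, adjusted p = 0.000887). The difference between the responses was called higher at day 35 for 6, among them Errfi1 (5.33), Dusp6 (3.37) and Dusp4 (4.54), and lower for 1. The exception in both contrasts was Dusp7, named after its values were seen, at 1.16 for the day 3 response and -1.89 for the difference.

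Among 8 genes of ligand shedding 3 fell and 1 rose with hormone at day 3. Timp3, which is an inhibitor of the proteases and not a protease, fell by 2.77 ± 0.21 (adjusted p = 6.54e-07), Adam19 fell by 2.36 ± 0.34 (adjusted p = 0.000319), and Adam12 rose by 1.08 ± 0.21 (adjusted p = 0.00273). Adam17, the main known sheddase of several EGF receptor ligands, was at 111.8 ± 7.88 and 118.5 ± 15.1 CPM at day 3 (0.08 ± 0.13, adjusted p = 0.654) and was the 1 list member called at day 35, with a rise of 0.62 ± 0.13 (adjusted p = 0.0116). The day 3 value of Adam17 is given for this role and was picked after its values were seen. Of 14 adaptors and cascade kinases, 3 fell at day 3 and 0 changed at day 35. Among them were Nras (-0.68 ± 0.14, adjusted p = 0.00505), a small GTPase, and Braf (-0.85 ± 0.28, adjusted p = 0.046), a kinase that activates MEK.

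Of the family members outside the 9, 5 of 6 (Egf, Epgn, Nrg2, Nrg4 and Erbb4) were tested, and 2 rose with hormone at day 3. Egf went from 1.04 ± 0.197 to 3.55 ± 1.31 CPM (adjusted p = 0.0096). Nrg2 went from 0.00813 ± 0.0141 to 0.368 ± 0.278 CPM (adjusted p = 0.0478), a level reached beside the higher background of those libraries, whose part in both rises was not tested.

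The lists were also read in late against early cells without hormone. Among all genes tested, 15.5% rose and 14.5% fell with vehicle, and 5.63% rose and 51.5% fell in untreated cells. In each experiment 14 ERK-responsive transcripts were tested, 13 of them shared, with Plaur tested only in the hormone experiment and Myc only in untreated cells. Of the 14, 11 fell and 1 rose between vehicle day 3 and day 35 (median -2.45 against 0.17 for all genes), and 12 fell and 1 rose between untreated day 3 and day 35 (median -2.46 against -0.69). Ptgs2 fell by 6.00 ± 0.25 (adjusted p = 4.12e-10) in the first and by 5.43 ± 0.23 (adjusted p = 5.87e-12) in the second. The 1 rise in each was Ccnd1, which encodes cyclin D1, at 1.40 and 0.88, named after its values were seen. Of the feedback inhibitors 8 of 18 fell and 1 rose with vehicle, and 13 of 17 fell and 1 rose in untreated cells. Errfi1 fell by 4.48 ± 0.21 (adjusted p = 1.14e-09) and by 4.91 ± 0.35 (adjusted p = 1.70e-09), and Dusp6 by 2.35 ± 0.17 and 3.38 ± 0.23. Spry1 was the rise in both, at 2.16 and 1.75, also named after its values were seen. Among adaptors and cascade kinases the medians of 0.01 with vehicle and -0.68 in untreated cells stood beside 0.17 and -0.69 for all genes. There 2 of 14 fell and 2 rose with vehicle, and 5 of 11 fell and 0 rose in untreated cells. Of the shedding genes 3 of 8 fell and 1 rose with vehicle, and 5 of 6 fell and 0 rose in untreated cells. Of the 5 other ligands and receptors tested with vehicle, 0 were called.

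**Figure D5:**
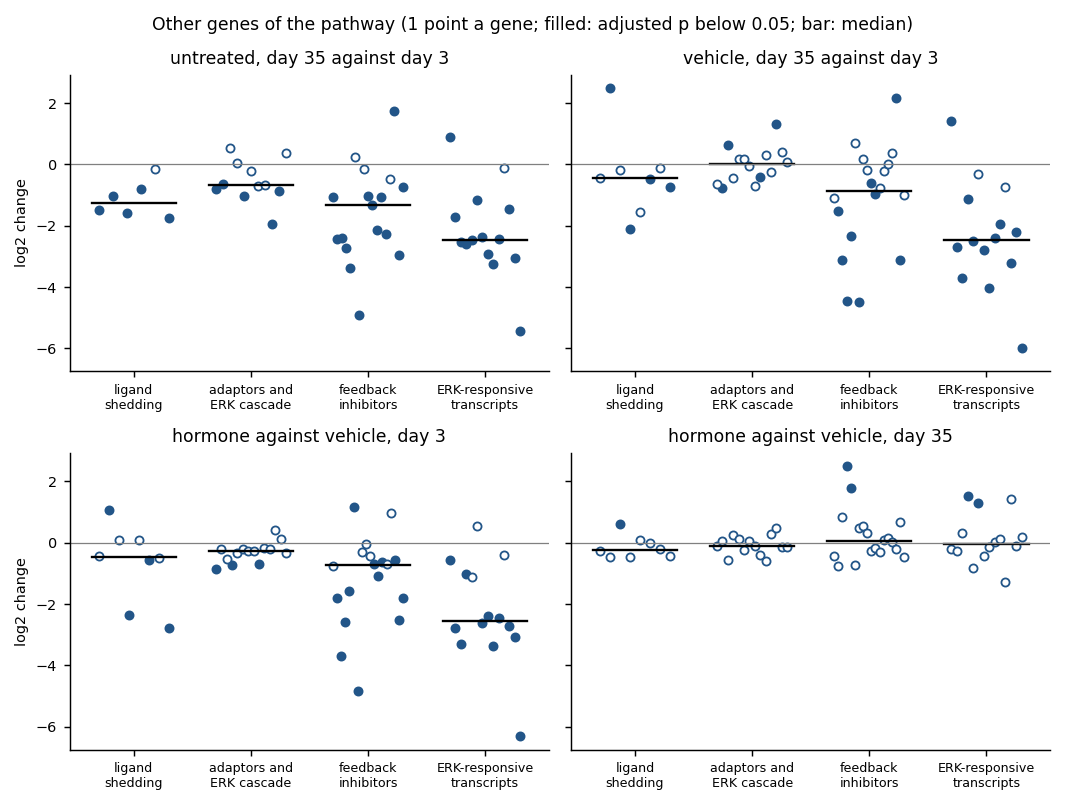
Fitted log2 change of each tested gene in 4 pathway lists for 4 comparisons; filled points passed an adjusted p of 0.05 and bars are list medians. The ERK-responsive list has medians of -2.46, -2.45 and -2.54 in the untreated, vehicle and day 3 hormone panels and -0.05 in the day 35 hormone panel.

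Ereg, Areg and Btc are neighbours on mouse chromosome 5, together with Epgn, another EGF-type ligand. By the RefSeq order on GRCm38.p6 (the submitters' files use mm9), Cxcl2, Mthfd2l and Epgn lie on one side of Ereg and Areg, and Btc, Parm1 and Rchy1 on the other. In this stretch the fall with hormone at day 3 was called for Ereg (-4.46) and not for Areg (-1.44) or Btc (-0.29). The other neighbours were not called in any contrast of the hormone experiment. At day 3 with hormone Mthfd2l changed by 0.10 ± 0.19 (adjusted p = 0.725), Epgn by 1.77 ± 1.10 (adjusted p = 0.242) and Rchy1 by 0.19 ± 0.14 (adjusted p = 0.313). Parm1 changed by 1.32 ± 0.84 (adjusted p = 0.253) and Cxcl2 by -1.17 ± 1.58 (adjusted p = 0.597). In vehicle cells of day 35 against day 3 Cxcl2 changed by -4.21 ± 1.83 (adjusted p = 0.0987).

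The genes most like the 3 members of widest range were found by Pearson's r over group means of log2 values, among genes called in at least 1 comparison. Over the 4 hormone-experiment means they were M6pr, Crebzf and Creb5 for Ereg, Rgs16, Mical2 and Tgif1 for Hbegf, and Gpr21, Taf3 and Ube2l6 for Nrg1, each with r of at least 0.999. With 4 points such values are common: of 6718 candidates 85 reached r = 0.99 for Ereg, 30 for Hbegf and 227 for Nrg1. Over the 6 untreated day means the closest to Nrg1 were Ndufs3, Bmpr1a and Serpinb1a (r = 0.999), and 93 of 6189 candidates reached 0.99. The points of a comparison share their libraries and scaling, and no test was made of these likenesses.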

How the data were processed

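RNA was measured by sequencing in 30 libraries of IDG-SW3 cells, depleted of ribosomal RNA and made with different kits in the 2 experiments. Reads were aligned with TopHat to mm9, per the submitters' processing notes, and the counter and annotation are not given in the sources used here. The authors deposited RPKM for the 18 untreated libraries, a unit read from the values, and files named RPKM that hold whole-number counts for the 12 hormone libraries, which were treated as counts. Rows of a symbol were reduced to the row with the highest mean RPKM or summed as counts (Egfr has 2 rows in each table). For the untreated course, log2(RPKM + 0.5) values of all 18 libraries entered limma (3.58.1) with a trended prior, leaving 12 residual degrees of freedom, and the 9933 genes that reached 1 RPKM in 3 or more libraries were kept. Counts of all 12 hormone libraries went through filterByExpr, which kept 20055 genes, TMM scaling and the quasi-likelihood test of edgeR (4.0.16, in R 4.3.3), with 8 residual degrees of freedom. CPM use TMM-scaled library sizes. Tests were two-sided, Benjamini-Hochberg adjusted over all genes tested and called below 0.05. For edgeR, SE and 95% intervals follow from each change and its F value. The intervals use a normal approximation, so they are somewhat narrower than the quasi-likelihood test implies. CPM per kilobase use exon lengths from GENCODE on GRCm38, and background is the summed count of 1100 olfactory receptor genes over their length. The scripts were tested on simulated data. DESeq2 (1.42.0) and the other scalings, filters, blocks and left-out libraries were alternatives.

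The 9 genes, the pathway and marker lists and the tests were chosen with earlier results of these data known. Besides the 9, at most the 3 called genes of smallest adjusted p were named in each list and comparison, and the 3 genes of closest pattern for the 3 members of widest range. A gene that met these rules is not reported here. The hormone libraries scale differently by TMM (factors 1.175 to 1.288 at day 3 with hormone, 0.871 to 1.018 elsewhere): with library totals instead, the median change of all genes at day 3 was 0.65 in place of 0.26, and calls were 4228 higher and 594 lower in place of 2278 and 1824. RPKM carry no counts, so the depth of untreated libraries is unknown. The replicate numbers of the labels were checked for pairing and did not meet the rule for pairs.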

Additional observations from a re-analysis of the deposited data

Results flagged for a closer look

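The hormone response of Hbegf differed between the days by 5.59 on the log2 scale (edgeR interaction contrast, adjusted p = 1.02e-07), since the change was -5.24 at day 3 and 0.34 at day 35. The same contrast for Ereg was 5.24 (adjusted p = 4.39e-06), from changes of -4.46 and 0.79. All 3 hormone libraries of day 3 lay below all 3 vehicle libraries for both genes. At day 35 all 3 hormone libraries lay above the vehicle libraries for Hbegf, and the groups overlapped for Ereg. Both differences kept their sign and their call in every alternative run, from 5.23 to 5.87 for Hbegf and from 4.87 to 5.76 for Ereg. With the background per kilobase subtracted they were 5.76 and 5.32.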

How the results depend on the processing

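Leaving out the RPKM filter raised the number of the 9 genes called against untreated day 3 to 3, 3, 4, 6 and 7 at days 7, 14, 21, 28 and 35, and to 6 in the F test, since 9 genes and not 2 were tested. For day 28 against day 21 the count of 1 became 2 with median centring, quantile normalization, rescaling to rows other than rRNA, the sequencing run in the model and the replicate block, 0 with a pseudocount of 0.1, and 0 to 2 when single libraries were left out. For day 35 against day 28 it became 0 with the run in the model and 1 to 2 with libraries left out. The hormone count at day 3 rose from 2 to 4 in DESeq2 and with library totals in place of TMM, and was 2 to 4 with libraries left out. At day 35 it fell from 1 to 0 under the replicate block and with library totals, and was 0 to 2 with libraries left out. In the replicate block Egfr at day 35 was 0.78 (adjusted p = 0.0571) and Erbb2 in vehicle cells was -0.77 (adjusted p = 0.0511), and Erbb2 was -0.78 (adjusted p = 0.0565) when the vehicle groups were fitted alone. The cause of these moves was not tested. Same-numbered libraries correlated at 0.0578 to 0.584 (median 0.269) in untreated cells, against a median of -0.301 between different numbers. There 8 of 18 libraries correlated best with their own number. In the hormone experiment the range was -0.486 to 0.534 (median -0.0312, against 0.0286), and 5 of 12 did. The numbers were not taken as pairs, although untreated libraries of the same number were more alike than those of different numbers. Untreated libraries of replicate 1 also shared a sequencing run, so number and run cannot be fully told apart there. Under the block the number of all genes called rose to 128 for day 21 against day 14, 213 for day 28 against day 21 and 1502 for day 35 against day 28, which is 2.03, 1.73 and 1.89 times the count without it. The other 10 counts moved by less than 1.5 times.

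Changes that reversed were all uncalled. Egfr at untreated day 7 (0.01) was -0.10 centred, -0.13 with quantiles, -0.23 rescaled and -0.01 with the run, and -0.08 to 0.09 with libraries left out. Nrg1 at day 7 (0.35) was -0.03 with quantiles, and Nrg1 from day 7 to 14 (-0.14) was 0.07 with quantiles, 0.05 rescaled and -0.26 to 0.00 with libraries left out. With library totals Btc and Erbb2 at day 3 were 0.11 and 0.24, and the Egfr difference was -0.04. With libraries left out Btc was -0.61 to 0.14 at day 3, -0.62 to 0.86 at day 35 and -0.24 to 1.24 for the difference, Erbb2 was -0.44 to 0.14 at day 3 and -0.33 to 0.29 for the difference, and Erbb3 in vehicle cells was -1.01 to 0.33. The Erbb2 difference was 0.09 without the count filter. With background subtracted Tgfa at day 3 was -0.66 and the Erbb3 difference 0.20. Hbegf and Ereg at day 3 stayed called in every alternative, from -5.53 to -4.85 and from -4.62 to -4.06. Depth limits Areg, Tgfa and Erbb3, whose libraries hold 0 to 161 counts.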
